A study of Mus musculus with 2 samples.

Results

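The 9 genes described here, Spi1, Irf8, Irf4, Batf3, Id2, Zeb2, Maf, Cebpb and Klf4, encode transcription factors that are known for their part in the formation and identity of macrophages, monocytes and dendritic cells. They were taken by gene symbol from the single-cell count matrices, where all 9 were found among 32285 genes. The cells were CD45-positive leukocytes sorted from the kidneys of B6 mice with AAN CKD (AAN is taken here as aristolochic acid nephropathy, a toxin-induced chronic kidney disease) at week 2, and were counted with the 3' Chromium chemistry by unique molecular identifiers (UMIs), 1 for each RNA molecule caught. They came from 2 hashed samples, marked with hashtags 301 and 305 and captured in 1 library, and paired values below are for hashed sample 1 and then hashed sample 2. All cells share the labelled genotype and disease, no untreated kidney was used, and classes of cells were compared with each other within each hashed sample. The time label gives week 2 alone and the title week 1 as well, with a single mouse, so that the labels leave unstated whether the hashed samples differ in week or are separate animals, and differences of week, animal or handling between them cannot be told apart. The labels also speak of human kidneys and mesenchymal stem cells, words that go against the mouse gene identifiers and the leukocyte markers and were not used.

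PU.1, the product of Spi1, is an ETS factor that myeloid cells require and that binds DNA together with IRF8 or IRF4. IRF8 with BATF3 and ID2 is needed for type 1 dendritic cells, the cross-presenting subset, while IRF4 and KLF4 serve type 2 dendritic cells, which present antigen to CD4 T cells. ID2 inhibits E proteins, and ZEB2 is a repressor that favours monocytes, macrophages and type 2 dendritic cells over type 1 dendritic cells. C/EBPβ is needed for patrolling monocytes and acts in inflammatory gene expression, KLF4 acts in monocyte formation, and MAF is a bZIP factor of resident macrophages and of several T cell subsets.

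The loci lie on 6 chromosomes of GRCm38 by GENCODE annotation. Irf8 lies at chr8:120736358-120756694 on the plus strand and Maf at chr8:115682942-115707794 on the minus strand. Spi1 at chr2:91082390-91115756 and Cebpb at chr2:167688915-167690418 are on the plus strand, and Zeb2 at chr2:44983632-45117395 is on the minus strand. Batf3 at chr1:191097847-191108945 and Irf4 at chr13:30749226-30766976 are on the plus strand, and Id2 at chr12:25093799-25097140 and Klf4 at chr4:55527143-55532466 are on the minus strand. Zeb2, Maf and Cebpb are overlapped on the opposite strand by Zeb2os, Gm15655 and Tmem189, which are also rows of the matrices. Whether counting used strand is not given in the sources used here, so that reads of these pairs could not be told apart with certainty. Promoter windows of 300 bases, 250 before to 50 after each RefSeq start (GRCm38.p6), were held for 7 of the members, not for Spi1 and Maf, and numbered 2 for Irf8 and 4 for Zeb2.

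The windows of Irf8 and Batf3 are shown because Irf8 set type 1 dendritic cells apart in the values that follow and Batf3 was high in type 1 and migratory dendritic cells. Capitals mark matches to TTCNNNGAA, the letters of the GAS element that STAT factors bind, and both windows are on the plus strand.
Irf8, chr8:120736108-120736407: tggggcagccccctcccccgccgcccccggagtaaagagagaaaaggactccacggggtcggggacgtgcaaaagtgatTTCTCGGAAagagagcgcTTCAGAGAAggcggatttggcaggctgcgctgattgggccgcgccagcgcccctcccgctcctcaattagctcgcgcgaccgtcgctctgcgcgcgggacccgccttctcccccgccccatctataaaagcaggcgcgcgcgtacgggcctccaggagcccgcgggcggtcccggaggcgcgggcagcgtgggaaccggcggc
Batf3, chr1:191098164-191098463: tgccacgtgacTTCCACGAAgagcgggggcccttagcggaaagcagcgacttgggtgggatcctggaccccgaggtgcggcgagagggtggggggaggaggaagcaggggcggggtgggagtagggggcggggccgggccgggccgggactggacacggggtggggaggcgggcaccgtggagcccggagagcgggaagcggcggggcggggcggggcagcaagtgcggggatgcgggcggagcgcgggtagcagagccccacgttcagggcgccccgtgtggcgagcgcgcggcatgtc
The printed Irf8 window held 2 matches, which begin 171 and 153 bases before the start, and the Batf3 window held 1 match, 239 bases before it. GAS letters occurred in 8.30% of all 32851 promoter windows in the table. They were also found in 2 of the 4 Zeb2 windows, which overlap each other. These are chr2:45113230-45113529 and chr2:45113204-45113503, with the match 147 and 173 bases before the start. The other motifs searched, on both strands, were 2 GAAA half-sites with 2 bases between (the interferon-stimulated response element, in 3.44% of windows), GGAA and GAAA with 2 bases between (the ETS and IRF composite element, 2.72%), GAGGAAGT (a PU.1 site, 3.20%), TGANTCA (AP-1, 7.81%), TTGCNNAA (C/EBP, 10.8%) and CACCTG (the E-box that ZEB factors bind, 20.2%). The first 3 of these can overlap one another. None of the 6 was found in the printed windows, while the other Irf8 window, chr8:120738389-120738688, held 1 E-box match 205 bases before its start. Of the other Zeb2 windows, chr2:45110228-45110527 held AP-1 letters and chr2:45117393-45117692 held C/EBP letters. The windows of Irf4, Id2, Cebpb and Klf4 held no match to any of these motifs. A match or its lack is a description of letters only.

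Classes were gated on marker genes, none of which is a member. Of 7015 deposited barcodes, none of them shared between the hashed samples, 6552 cells were kept, with medians of 5665.5 and 6566.5 UMIs. They included 54 and 77 type 1 dendritic cells, with the defining markers Xcr1 at 281 and 423 CPM (counts per 1000000 UMIs of the class) and Clec9a at 263 and 236 CPM. Type 2 dendritic cells (69 and 153) held Cd209a at 564 and 777 CPM, with Xcr1 at 0 in both hashed samples, and migratory dendritic cells (62 and 38) held Ccr7 at 1122 and 1525 CPM. Classical monocytes (57 and 60) rested mainly on Chil3, at 4524 and 2910 CPM, with Ly6c2 at 67.2 and 61.6 CPM, and patrolling monocytes (22 and 34) had Ace at 676 and 599 CPM. Macrophages were graded by the complement genes C1qa, C1qb and C1qc: 1241 and 1915 cells were C1q-high (at least 60 UMIs of these genes per 10000), 258 and 308 C1q-intermediate (15 to 60), and 238 and 277 C1q-low myeloid cells met no dendritic cell or monocyte gate. Plasmacytoid dendritic cells numbered 3 and 5, too few to compare, with Irf8 at 3540 and 3935 CPM.

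T cells (932 and 445) were measured as a class that should lack the macrophage genes, since free RNA gives UMIs in every droplet. Spi1, which mature T cells lack, stood at 23.9 and 19.9 CPM there, which is 5.47% and 4.16% of its level in C1q-high macrophages, and C1qa stood at 2.68% and 3.52%. Like Spi1, the other members stood above the ratio of C1qa: Zeb2 at 7.62% and 6.12% of its macrophage level, Klf4 at 12.8% and 12.0%, Cebpb at 12.8% and 14.5%, Batf3 at 15.1% and 14.6%, Irf8 at 23.3% and 18.2%, Maf at 31.2% and 27.3%, Irf4 at 196% and 140.5% and Id2 at 330.2% and 472%. In CPM, T cells held Batf3 at 6.90 and 8.69, Klf4 at 27.8 and 21.5 and Cebpb at 49.3 and 54.7. Maf, Irf4 and Id2 are genes that T cells are known to use. The T cell level is therefore given as a comparison and not as a measure of free RNA. A level in a class does not separate fewer expressing cells from less RNA per cell. A 95% interval covers counting error only, and since the labels describe the 2 hashed samples of 1 capture as 1 sample, class differences were not tested and p-values are not reported.

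**Figure D1:**
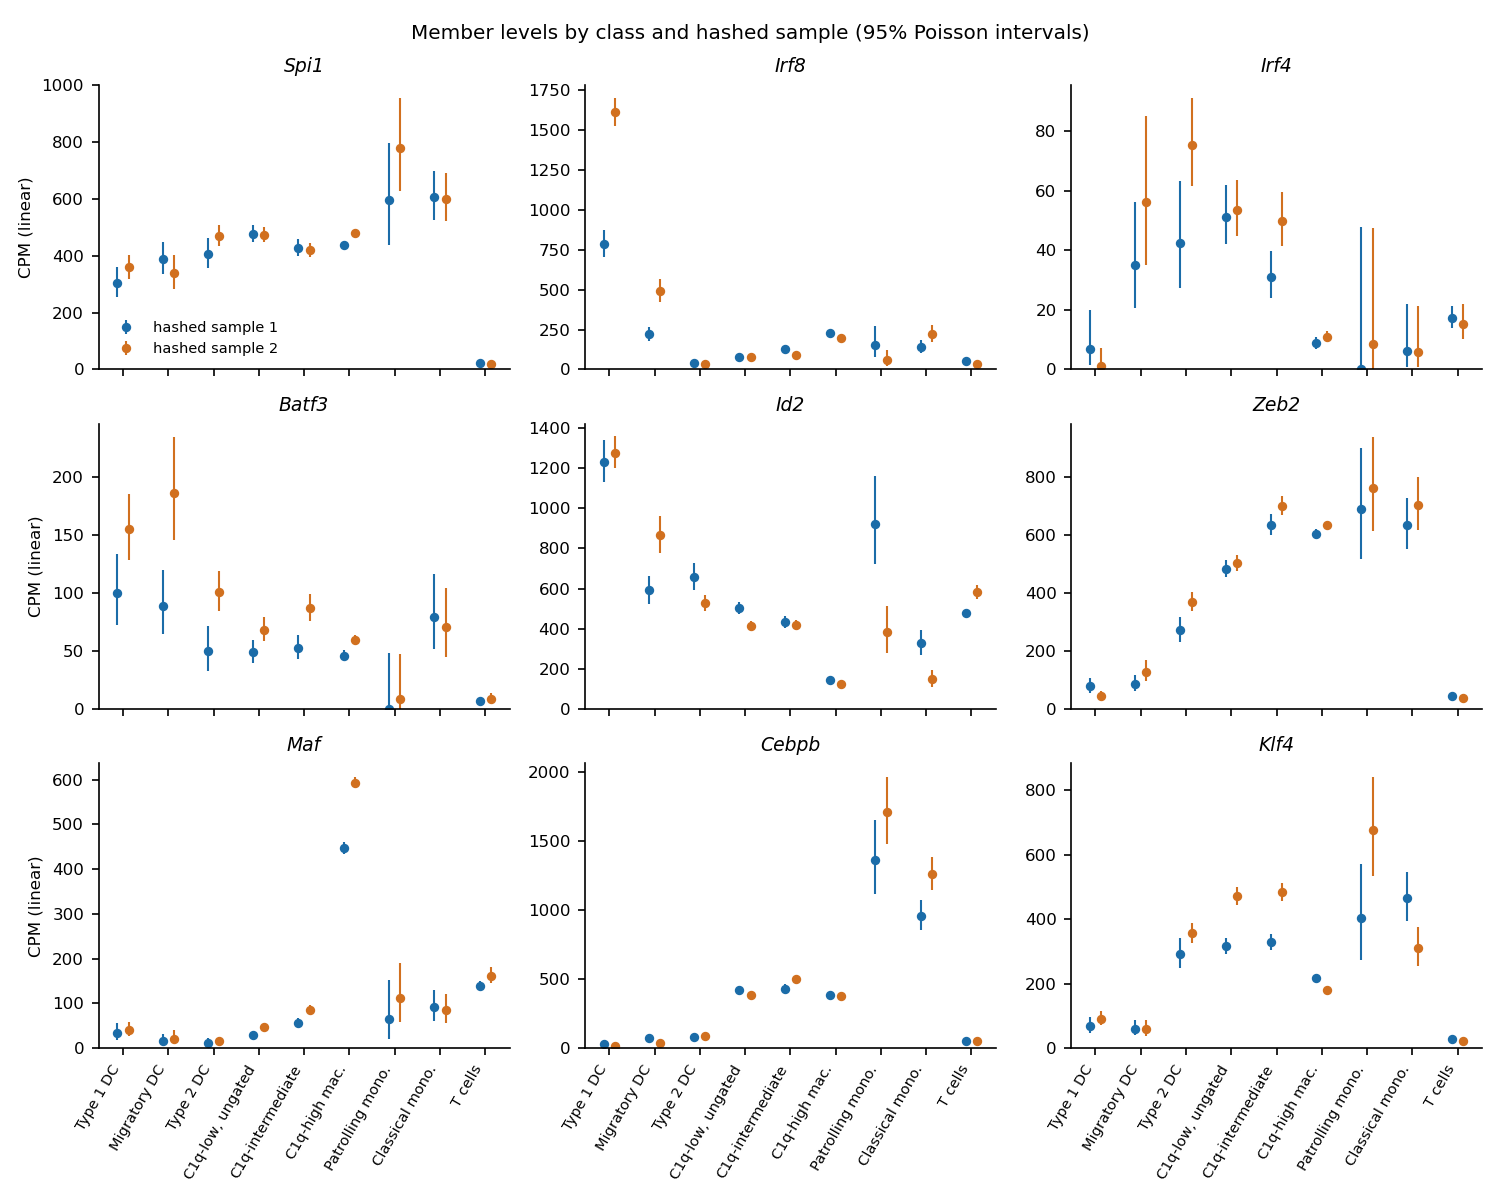
Each panel shows the level of 1 gene in CPM on a linear axis (y) in 8 myeloid classes and in T cells (x), with 1 point per hashed sample and its exact 95% Poisson interval. Irf8 stands highest in type 1 dendritic cells (789 and 1612 CPM), Maf in C1q-high macrophages (447 and 594 CPM) and Cebpb in patrolling monocytes (1364 and 1711 CPM).

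Irf8 separated type 1 dendritic cells from every other class compared. It stood at 789 CPM (95% interval 708 to 876) and 1612 CPM (1525 to 1703) in type 1 dendritic cells, against 39.0 and 31.8 CPM in type 2 dendritic cells. The ratio was 20.2 (13.2 to 32.7) and 50.7 (37.5 to 70.1), with rank 4 from the top among 2507 measured genes. T cells held 52.9 and 36.3 CPM, so that type 2 dendritic cells did not exceed them. Migratory dendritic cells came next, at 219 and 490.5 CPM, and were apart from C1q-high macrophages (227 and 199.9 CPM) in hashed sample 2 but not in hashed sample 1. Patrolling monocytes held 155.9 and 59.9 CPM and classical monocytes 140.4 and 220.0 CPM. After each cell was thinned to 1000 UMIs, 34.0% (21.5 to 48.3) and 64.5% (52.7 to 75.1) of type 1 dendritic cells had an Irf8 UMI, against 3.16% and 3.70% of T cells. Unthinned, these shares were 72.2% and 90.9% in type 1 dendritic cells, with median depths of 8647 and 10398 UMIs, and 13.5% and 8.99% in T cells, with medians of 3841 and 3373 UMIs.

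The type 1 dendritic cell gate was not uniform in Irf8. In a check added after the data were seen, the 39 and 65 gated cells with a UMI of Xcr1 or Clec9a held Irf8 at 910.4 and 1717 CPM, and the remaining 15 and 12 cells held 189 and 151.9 CPM. Zeb2 ran the other way, at 46.3 and 10.9 CPM in the cells with Xcr1 or Clec9a and 229 and 513 CPM in the others. Maf was at 13.6 and 8.19 CPM in the cells with either marker and at 135 and 494 CPM in the others. Over the whole class, Irf8 was 2.04 times higher (1.81 to 2.31) in hashed sample 2 than in hashed sample 1, and Xcr1 also differed, by 1.504 times (1.22 to 1.86). Whether the makeup of the gate accounts for that difference was not tested.

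Batf3, the bZIP partner that maintains Irf8 in type 1 dendritic cells, was high in type 1 and in migratory dendritic cells. It stood at 99.8 and 155.4 CPM in type 1 dendritic cells and 89.0 and 186 CPM in migratory dendritic cells, 2 classes whose intervals overlapped. Type 2 dendritic cells followed at 49.6 and 100.5 CPM, and classical monocytes (79.4 and 70.4 CPM) and C1q-high macrophages (45.8 and 59.7 CPM) also carried it above the T cell level. Patrolling monocytes were the exception: 0 of 76979 UMIs in hashed sample 1, where 3 UMIs would be 39.0 CPM and the 95% interval reaches 47.9 CPM, and 1 UMI (8.55 CPM) in hashed sample 2.

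Id2 was highest in type 1 dendritic cells and lowest in C1q-high macrophages. Its level was 1233 and 1277 CPM in type 1 dendritic cells, 592 and 866 CPM in migratory dendritic cells and 659 and 527 CPM in type 2 dendritic cells. C1q-intermediate cells held 432 and 417 CPM, and C1q-high macrophages 144 and 123 CPM. Both monocyte classes had less Id2 in hashed sample 2, at 922 and 385 CPM in patrolling monocytes and 327 and 147 CPM in classical monocytes, so that the classes overlapped across hashed samples.

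Irf4, the factor of type 2 dendritic cells, was a low gene throughout. Type 2 dendritic cells held 42.5 and 75.2 CPM, C1q-low ungated cells 51.3 and 53.6 CPM, migratory dendritic cells 35.2 and 56.2 CPM and C1q-intermediate cells 31.1 and 49.9 CPM. In this order each interval overlapped the next. C1q-intermediate cells (23.9 to 39.8 CPM) lay apart from C1q-low ungated cells (42.0 to 62.1 CPM) in hashed sample 1. In hashed sample 2 they (41.4 to 59.5 CPM) lay apart from type 2 dendritic cells (61.5 to 91.2 CPM). C1q-high macrophages (8.78 and 10.9 CPM) lay below all 4 classes. Type 1 dendritic cells held 6.80 CPM (3 UMIs) and 1.27 CPM (1 UMI), a ratio to type 2 dendritic cells of 0.160 (0.0308 to 0.526) and 0.0169 (0.000425 to 0.0964). Irf4 and Irf8 were thus opposite between type 1 and type 2 dendritic cells, whereas the migratory class as a whole held both. Whether single migratory cells held both was not tested.

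Zeb2, Cebpb and Klf4 were low in type 1 dendritic cells and high in monocytes, and each fell off at a different class. Zeb2 was level over patrolling monocytes (688 and 761 CPM), classical monocytes (635 and 704 CPM), C1q-intermediate cells (635 and 699.7 CPM) and C1q-high macrophages (601 and 635 CPM). It was lower in type 2 dendritic cells (271 and 369 CPM) and lowest in migratory (86.9 and 128 CPM) and type 1 dendritic cells (77.1 and 44.6 CPM). Cebpb was highest in patrolling monocytes, at 1364 CPM (1116 to 1651) and 1711 CPM (1482 to 1965), then in classical monocytes, at 958 and 1258 CPM. C1q-high macrophages held 385 and 377 CPM, and all 3 dendritic cell classes were under 90 CPM, type 1 dendritic cells (34.0 and 16.6 CPM) being under the T cell level. Klf4 stood at 403 and 676 CPM in patrolling monocytes, 467 and 311 CPM in classical monocytes and 292 and 357 CPM in type 2 dendritic cells. It was at 68.0 and 91.7 CPM in type 1 dendritic cells and 60.01 and 58.8 CPM in migratory dendritic cells. Klf4 in dendritic cells therefore went with Cd209a-positive type 2 cells and not with the other 2 classes.

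Cebpb and Klf4 respond to tissue digestion in many protocols, so the summed level of 11 dissociation stress genes is given beside them. Its median per 10000 UMIs was 22.1 and 37.1 in patrolling monocytes, 49.7 and 73.8 in classical monocytes, 41.3 and 53.3 in type 2 dendritic cells, 18.2 and 16.9 in type 1 dendritic cells and 18.2 and 19.9 in C1q-high macrophages. Cebpb was higher in patrolling than in classical monocytes by less than 1.5-fold, and classical monocytes had the higher stress sum. The sum cannot separate digestion from other differences between classes, and the part of digestion in these levels was not tested.

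Maf marked C1q-high macrophages. It stood at 447 CPM (433 to 462) and 594 CPM (581 to 607) there, and the other 7 myeloid classes lay between 10.6 CPM, in type 2 dendritic cells, and 111 CPM, in patrolling monocytes. C1q-intermediate cells held 56.8 and 85.1 CPM. Thinned to 1000 UMIs, 33.6% and 38.0% of C1q-high macrophages had a Maf UMI, against 1.45% and 2.61% of type 2 dendritic cells, and unthinned 65.8% and 70.2% against 8.70% and 13.7%. Spi1 varied least of the 9. Its mean over the hashed samples spanned 331 CPM in type 1 dendritic cells to 688 CPM in patrolling monocytes, a range of 1.03 on the log2 scale (10 CPM added), against 4.74 for Irf8.

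In the comparisons of classes, genes under 50 CPM in both classes of either hashed sample were left out as not measured, and a measured gene was counted where both hashed samples showed a difference of 1.5-fold or more in 1 direction (10 CPM added). Of type 1 against type 2 dendritic cells, 5 of 9 members were counted, 7 being measured, beside 18.5% of all measured genes (7.70% higher and 10.8% lower). Irf8 and Id2 were higher and Zeb2, Cebpb and Klf4 lower. With the gate levels halved 3 members were counted: Irf8 and Maf as higher and Klf4 as lower, while Id2 (log2 mean 0.72) and Zeb2 (-0.74) were no longer counted and Cebpb turned round, to a log2 mean of 0.15. At the gate levels used, the ratio was 1.87 (1.64 to 2.14) and 2.42 (2.20 to 2.67) for Id2, 0.284 (0.190 to 0.414) and 0.121 (0.0832 to 0.170) for Zeb2, and 0.233 (0.152 to 0.345) and 0.257 (0.198 to 0.330) for Klf4. Batf3 missed the rule by a small margin, at log2 ratios of 0.88 and 0.58, and was counted under TMM scaling, which corrects class totals for a few abundant genes. Spi1 was not counted (log2 -0.41 and -0.38), and Irf4 and Maf were not measured. The median log2 ratio of the measured members was -0.40, against -0.06 over all measured genes. Of 65 other transcription factors of these families, 34 were measured, 3 higher and 12 lower. Among the lower ones Fosl2 was at 6.80 and 11.5 CPM in type 1 dendritic cells and 121 and 159.9 CPM in type 2 dendritic cells, and Bhlhe40 was at 81.6 and 53.5 CPM in type 1 dendritic cells, against 393 and 399 CPM in type 2 dendritic cells. The other 2 leading ones were Jun (154 and 163 CPM, against 599 and 509 CPM) and Fosb (145 and 62.4 CPM, against 284 and 368 CPM). Both are among the 11 genes of the stress sum, so they are not independent of it.

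Migratory dendritic cells, which carry Ccr7 and leave for lymph nodes, differed from type 2 dendritic cells in 4 of 9 members, 7 being measured, beside 32.5% of all measured genes (14.6% higher and 17.9% lower). Irf8 was 5.63 (3.53 to 9.36) and 15.4 (11.1 to 21.9) times higher and Batf3 1.79 (1.09 to 2.997) and 1.85 (1.38 to 2.48) times higher, the count of Batf3 being lost with halved gate levels and with Leiden clusters. Zeb2, at ratios of 0.321 and 0.346, and Klf4, at 0.205 and 0.165, were lower. Id2, Cebpb and Spi1 were measured but not counted, and Irf4 and Maf were not measured. Of the other transcription factors 35 were measured, 7 higher and 16 lower. Relb, the non-canonical NF-κB subunit, led those higher, at 302 and 376 CPM in migratory dendritic cells and 28.4 and 39.1 CPM in type 2 dendritic cells. Egr1 (4.14 and 7.66 CPM, against 147 and 212 CPM), Mef2c (20.7 and 2.55 CPM, against 103 and 94.8 CPM) and Cebpd (4.14 and 10.2 CPM, against 67.3 and 61.5 CPM) were lower. The migratory class thus carried Irf8 and Batf3 above and Zeb2 and Klf4 below type 2 dendritic cells, as type 1 dendritic cells did for Irf8, Zeb2 and Klf4. Both comparisons share the type 2 dendritic cells.

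Between type 2 dendritic cells and C1q-high macrophages 5 of 9 members were counted, 7 being measured, beside 21.7% of all measured genes (8.77% higher and 13.0% lower). Maf was lower in type 2 dendritic cells, at ratios of 0.0238 (0.00872 to 0.0518) and 0.0256 (0.0158 to 0.0391), rank 7 from the bottom among 2738 measured genes. Irf8 (0.172 and 0.159), Cebpb (0.211 and 0.236) and Zeb2 (0.451 and 0.581) were also lower, the count of Zeb2 being lost with Leiden clusters. Id2 was higher, at 4.56 (4.05 to 5.13) and 4.28 (3.92 to 4.67). Klf4 was 1.35 and 1.99 times as high and not counted, Spi1 was 0.931 and 0.983 times as high, and Irf4 and Batf3 were not measured. Of the other transcription factors 36 were measured, 9 higher and 5 lower. Bhlhe40 (393 and 399 CPM in type 2 dendritic cells, against 47.7 and 47.6 CPM in C1q-high macrophages), Etv3 (211 and 219 CPM, against 65.2 and 75.7 CPM) and Nr4a1 (104.6 and 135 CPM, against 37.6 and 44.2 CPM) were higher.

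C1q-high macrophages differed from classical monocytes in 3 of 9 members, 8 being measured, beside 16.0% of all measured genes (7.89% higher and 8.11% lower). Maf was 4.88 (3.41 to 7.25) and 6.98 (4.85 to 10.4) times higher in the macrophages. Cebpb, at 0.402 (0.358 to 0.453) and 0.299 (0.271 to 0.331), and Klf4, at 0.465 and 0.577, were lower. Zeb2 was close, at 0.947 (0.825 to 1.09) and 0.902 (0.793 to 1.03). Of the other transcription factors 38 were measured, 4 higher and 12 lower. Nr4a1 (37.6 and 44.2 CPM in macrophages, against 259 and 387 CPM in monocytes), Klf2 (73.8 and 68.4 CPM, against 433 and 534 CPM) and Nfil3 (21.7 and 14.2 CPM, against 134 and 173 CPM) were lower, and Mef2c (206 and 239.9 CPM, against 30.5 and 79.2 CPM) was higher.

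Patrolling monocytes, which crawl along vessel walls, differed from classical monocytes in 2 of 9 members, 8 being measured, beside 19.5% of all measured genes (12.0% higher and 7.52% lower). Id2 was 2.82 (2.06 to 3.85) and 2.62 (1.71 to 4.01) times higher. Batf3 was lower, at the 0 and 1 UMIs given above, against 26 and 24 UMIs in classical monocytes. Cebpb, at 1.42 (1.13 to 1.78) and 1.36 (1.14 to 1.61) times, stayed under the fold rule. Klf4 (0.862 and 2.17) and Irf8 (1.11 and 0.272) pointed opposite ways in the hashed samples. Among the other transcription factors 39 were measured, 5 higher and 8 lower, and Egr1, Runx3 and Fos were among the leading ones, all lower. The class held 76979 and 116924 UMIs in all, the least of the classes compared. In simulated counts with counting error only, the fold rule called 4.46% of unchanged genes in this comparison. It called at most 0.185% in the other class comparisons.

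**Figure D2:**
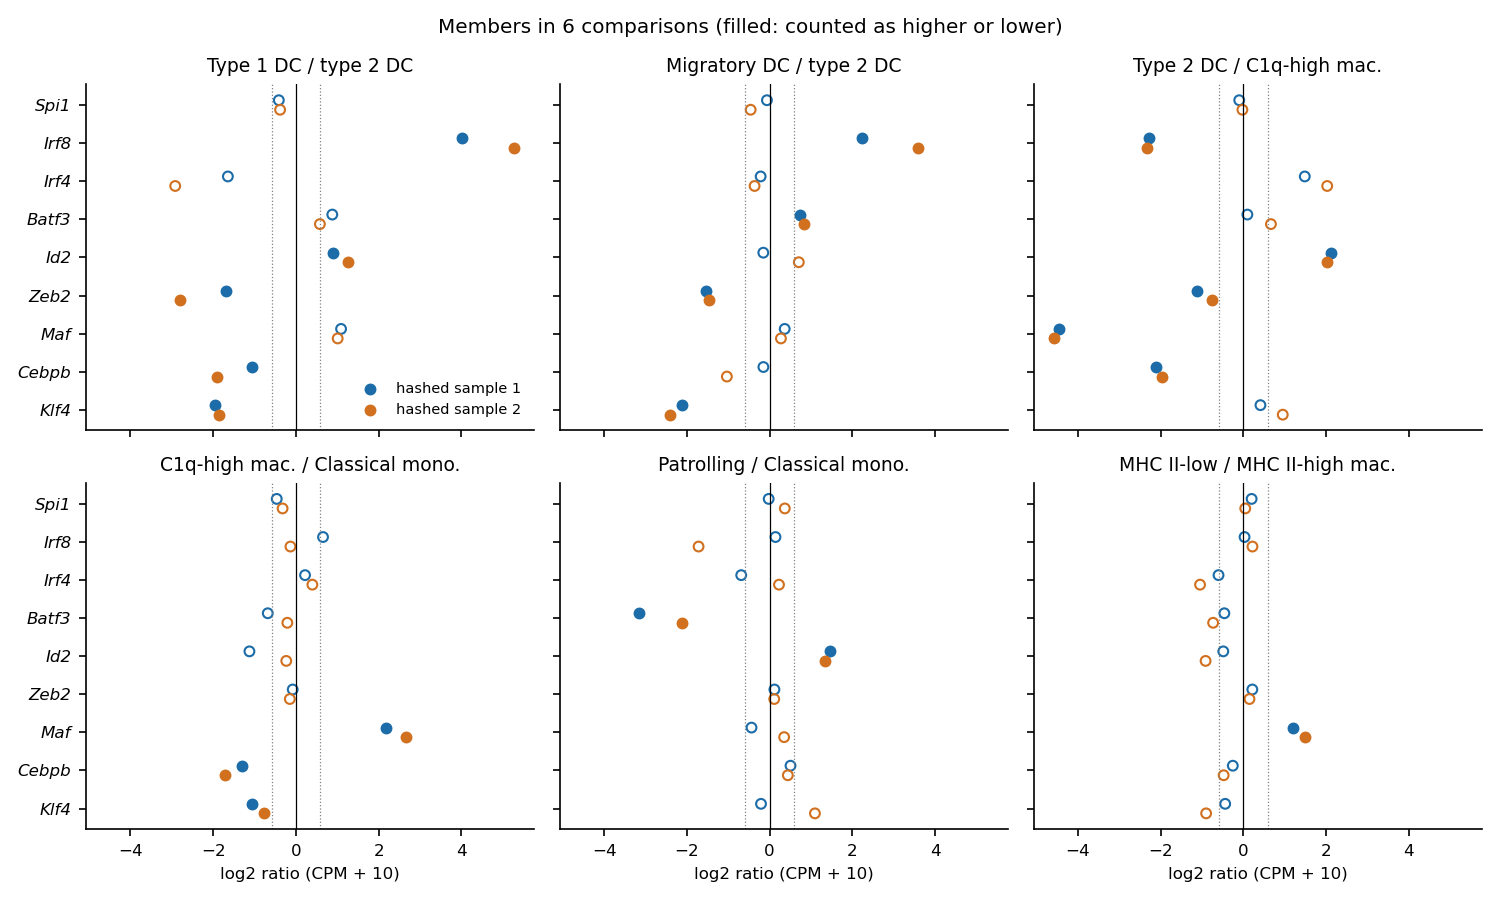
Each panel is 1 comparison, with the log2 ratio of CPM + 10 on the x axis, the members on the y axis and 1 point per hashed sample; filled points are members counted as higher or lower, and dotted lines mark 1.5-fold. Irf8 lies at 4.03 and 5.28 for type 1 against type 2 dendritic cells, and Maf at 1.21 and 1.48 for MHC II-low against MHC II-high macrophages.

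MHC II-negative resident macrophages are named in the design of the series. C1q-high macrophages were divided at 39.0 UMIs per 10000 of the class II genes H2-Eb1, H2-Ab1 and H2-Aa, where the distribution was lowest under its highest mode, and 240 of 3156 cells (7.60%) lay within 1.5-fold of that level. The MHC II-low side held 208 and 675 cells and the MHC II-high side 1033 and 1240 cells. Maf was the 1 member of 9 counted between them, 7 being measured, beside 5.44% of all measured genes (3.31% higher and 2.13% lower). On the MHC II-low side it stood at 839 and 1016 CPM, and on the MHC II-high side at 358 CPM in each hashed sample. The ratio was 2.34 (2.19 to 2.51) and 2.84 (2.72 to 2.97), with rank 15 from the top among 2721 measured genes. Id2 (106 and 75.0 CPM on the MHC II-low side, against 153 and 150.3 CPM on the MHC II-high side) and Klf4 (166 and 112 CPM, against 229 and 217 CPM) lay lower in both hashed samples but past 1.5-fold in hashed sample 2 only. Irf4 was at 3.21 and 2.41 CPM on the low side and 10.04 and 15.7 CPM on the high side, under the level at which a gene counts as measured. Spi1, Irf8 and Zeb2 differed by at most 1.17-fold.

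Scaling matters here: the median log2 ratio of all measured genes was 0.13, and -0.05 with TMM factors. With TMM factors Batf3, Id2 and Klf4 were also counted as lower in MHC II-low cells, and Maf was counted under either. Of the other transcription factors 35 were measured, none was higher and 5 were lower. Bhlhe40 led, at 16.0 and 8.42 CPM on the low side and 54.9 and 69.5 CPM on the high side. Junb, Fos and Fosb followed, at log2 means of -1.06, -0.86 and -0.85. These 3 are part of the stress sum and so are not independent of it. The median stress sum was 11.2 and 12.5 on the low side and 20.5 and 24.7 on the high side.

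The level of Maf was graded across MHC II rather than changing at the dividing level alone. With MHC II under 10, 10 to 20, 20 to 40, 40 to 100, 100 to 200, 200 to 300 and at least 300 per 10000, Maf in hashed sample 1 was at 902, 849, 704, 629, 489, 324 and 191 CPM. In hashed sample 2 it was at 1066, 910.3, 948, 826, 503, 270.1 and 152 CPM over the same steps. Zeb2 was at 616 and 643 CPM in the lowest step, 815 and 715 CPM in the 20 to 40 step and 507 and 604 CPM in the highest, so that its highest levels lay between the ends.

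C1q and MHC II are related measures, so the comparison was repeated within narrower groups, a choice made after the data were seen. Among cells with C1q at 150 or more, Maf was at 919.95 and 1033 CPM on the low side and 455 and 471 CPM on the high side, a ratio of 2.02 (1.88 to 2.18) and 2.19 (2.08 to 2.31). With C1q at 60 to 150 the ratio was 2.72 (2.29 to 3.23) and 4.26 (3.88 to 4.68). Among macrophages in none of the states described next it was 1.97 (1.74 to 2.21) and 1.90 (1.74 to 2.06), and without cycling cells 2.44 and 2.94. Within single states the MHC II-low side held as few as 1 cell. Of 10 groups (9 states and the cells of no state) Maf met the fold rule in 2, cycling cells and the cells of no state, and the MHC II-low cells had the higher level in both hashed samples in 6, the Cxcl9 state among them on 1 MHC II-low cell in hashed sample 1. In the other 4 groups the hashed samples pointed opposite ways, as in the Fcgr4 state (1.33 and 0.806) and the Ccl3 state (0.698 and 2.40). The hashed samples differed in Maf over all C1q-high macrophages, at 447 and 594 CPM, but were at 358 CPM each on the MHC II-high side. On the MHC II-low side hashed sample 2 was higher, at 839 and 1016 CPM, a ratio of 1.21 (1.14 to 1.29). It was also higher in the cells of no state and in each state described next except the Cd163 state, with intervals clear of 1. In the Cd163 state the ratio was 1.02 (0.926 to 1.12).

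The 3722 macrophages with C1q at 15 or more were also sorted into 9 states by marker genes, and each state was set against all other macrophages. Of the 81 pairs of a member and a state 18 were counted, and Maf accounted for 7 of them and Id2 for 5. Maf stood highest in the Cd163 state (markers of perivascular resident macrophages, 83 and 99 cells), at 1222 and 1242 CPM, and next in the Pf4 state (75 and 346 cells), at 850.2 and 1102 CPM. It stood lowest in the Ear2 state (121 and 248 cells), at 39.7 and 73.1 CPM, and the Arg1 state (127 and 209 cells), at 67.0 and 89.1 CPM. Between these lay the Fcgr4 state (585 and 888 CPM), cells of no state (480.2 and 723 CPM), cycling cells (260.2 and 512 CPM), the Ccl3 state (276 and 386 CPM), the Cxcl9 state (155 and 283 CPM) and the Il1b state (96.2 and 143 CPM). The states also differ in C1q, 99.5% of the Cd163 state and 64.5% of the Ear2 state being C1q-high. Among C1q-high cells on the MHC II-high side, Maf was at 60.4 and 78.0 CPM in the Ear2 state (63 and 167 cells). In the Arg1 state (59 and 121 such cells) it was at 98.3 and 84.2 CPM. The MHC II-low C1q-high cells were few. Maf was at 0 and 430 CPM in those of the Ear2 state (1 and 7 cells) and 86.5 and 261 CPM in those of the Arg1 state (12 and 23 cells).

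**Figure D3:**
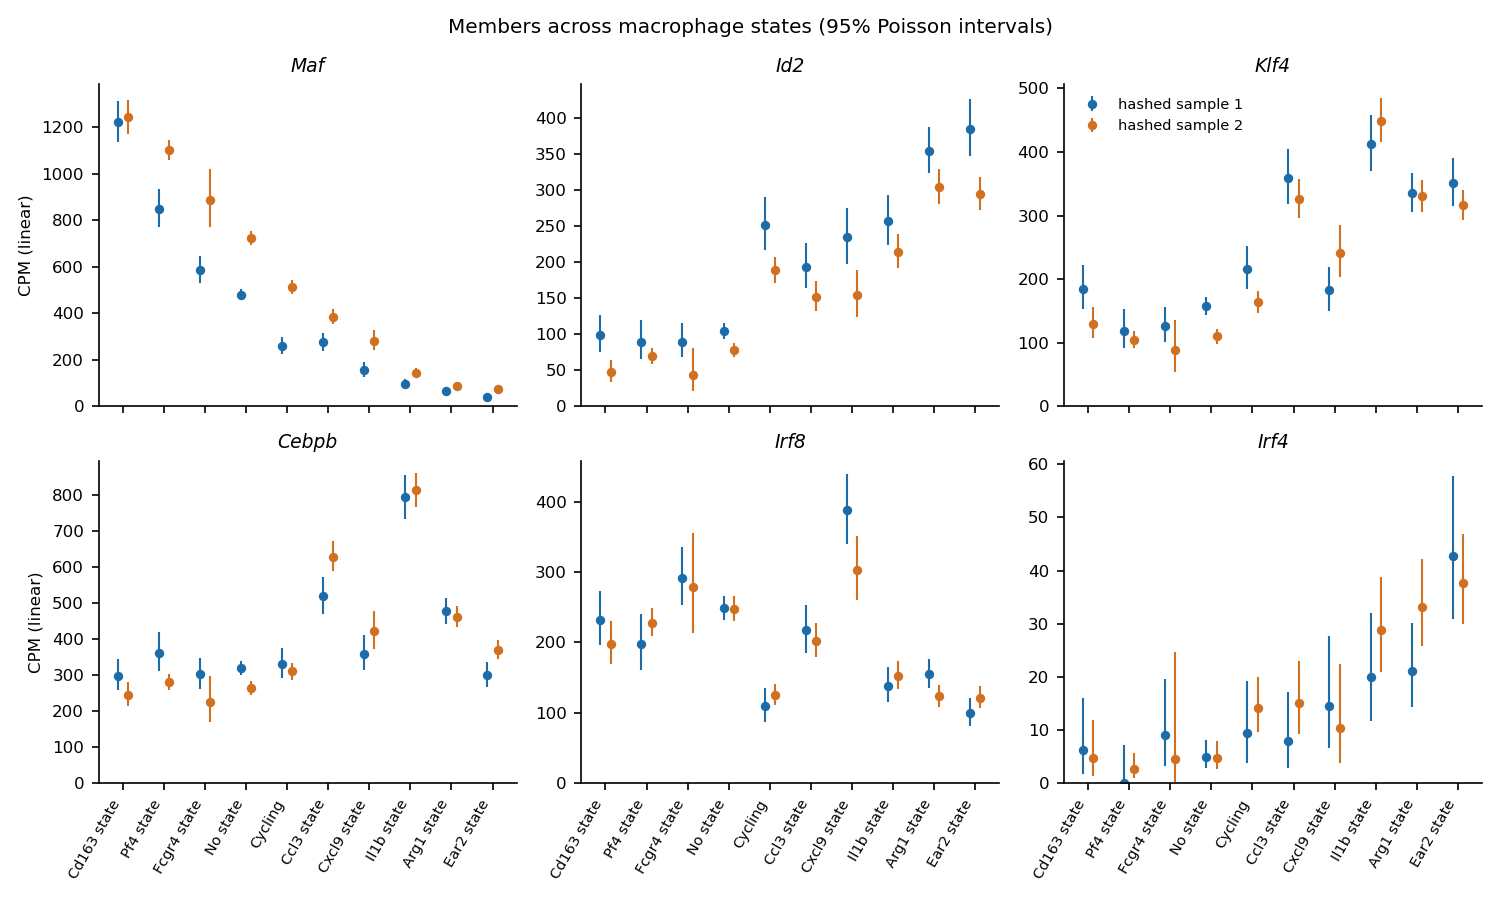
Levels of 6 members in CPM on a linear axis (y) across 9 macrophage states and the cells of no state (x), with 1 point per hashed sample and exact 95% Poisson intervals. Maf declines to 39.7 and 73.1 CPM in the Ear2 state, where Id2 reaches 386 and 295 CPM.

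Both Maf-rich resident states held less Id2 than other macrophages. In the Cd163 state, 2 of 9 members were counted, beside 9.90% of measured genes (6.23% higher and 3.67% lower): Maf, at 3.86 (3.57 to 4.18) and 2.61 (2.44 to 2.78) times the level of other macrophages, and Id2, at 0.478 and 0.271, a count lost among C1q-high cells alone. In the Pf4 state, 3 were counted, beside 6.70% (2.92% higher and 3.78% lower): Maf, at 2.45 (2.21 to 2.71) and 2.61 (2.49 to 2.73) with rank 5 from the top among 2673 genes, and Id2 (0.437 and 0.382) and Klf4 (0.486 and 0.427), which were lower. The Fcgr4 state, with Apoe among its markers, also had 3, beside 9.10% (2.85% higher and 6.25% lower): Maf was higher (1.64 and 1.74) and Id2 (0.431 and 0.261) and Klf4 (0.514 and 0.389) were lower, the counts of Maf and Klf4 being lost among C1q-high cells alone and that of Maf also with doubled gate levels. The other transcription factors held 6 to 7 lower and at most 1 higher in each of these 3 states, led by Bhlhe40, which was at 14.1 and 8.06 CPM in the Cd163 state and 84.0 and 82.2 CPM in the other macrophages.

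The Arg1 and Ear2 states showed the reverse. In the Arg1 state 2 members were counted, beside 10.3% of measured genes (4.52% higher and 5.76% lower): Id2 was higher, at 2.02 (1.82 to 2.23) and 2.05 (1.87 to 2.24), and Maf lower, at 0.160 and 0.154. In the Ear2 state 3 were counted, beside 9.40% (3.33% higher and 6.07% lower): Id2 was higher, at 2.13 and 1.98, and Maf, at 0.0977 (0.0694 to 0.134) and 0.125 (0.106 to 0.147), and Irf8, at 0.455 and 0.630, were lower, the count of Irf8 being lost with TMM factors, with doubled gate levels and among C1q-high cells alone. Irf4 reached its highest level among the states here, at 42.7 and 37.7 CPM. Bhlhe40 was higher in both states, at 142 and 151 CPM in the Arg1 state, against 69.9 and 68.1 CPM in other macrophages. Mef2c and Tcf4 were lower in the Arg1 state, and Fos and Mef2c in the Ear2 state.

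In the inflammatory states the members counted as higher were other ones. The Cxcl9 state, marked by interferon-induced chemokines, had 2 members counted, beside 5.04% of measured genes (3.89% higher and 1.15% lower): Irf8, at 388 and 303 CPM in the state and 197 and 179 CPM in other macrophages, was higher, and Maf, at ratios of 0.403 and 0.538, was lower. Irf7 (90.6 and 90.8 CPM, against 10.2 and 8.92 CPM) and Irf1 (265 and 159 CPM, against 80.5 and 51.4 CPM), which interferons induce, were among the leading other transcription factors there. Irf8 also stood at 292 and 278 CPM in the Fcgr4 state, and at 248 CPM in each hashed sample in cells of no state. The Il1b state had 3 counted, beside 6.96% (4.08% higher and 2.88% lower): Cebpb, at 2.20 (2.03 to 2.39) and 2.30 (2.16 to 2.44), and Klf4, at 1.85 and 2.22, were higher, and Maf, at 0.243 and 0.258, was lower. In that state 15 of 39 measured other transcription factors were higher and 1 lower, led by Id3, Nr4a1, Fosb and Fos. The Ccl3 state had no member counted, beside 1.99% (1.15% higher and 0.841% lower), with Klf4 at 1.57 (1.38 to 1.78) and 1.51 (1.36 to 1.66) and counted with TMM factors. Of the other transcription factors 8 were higher there and none lower, led by Atf3, Fos, Jun and Egr1, which are all part of the stress sum. The median stress sum was 82.6 and 83.2 in the Il1b state and 51.6 and 52.6 in the Ccl3 state, the highest of the states, and its part in Cebpb and Klf4 was not tested. Cycling cells had no member counted, beside 8.84% (7.41% higher and 1.43% lower), with Irf8 at 0.507 and 0.650 and counted as lower with TMM factors.

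Along the C1q level itself the members changed in different places. From cells with C1q under 5 through 5 to 15, 15 to 60, 60 to 150 and at least 150 per 10000, all outside the dendritic cell and monocyte gates, Maf in hashed sample 1 was at 22.7, 39.0, 56.8, 240.5 and 559 CPM. Id2 was at 548, 423, 432, 241 and 92.4 CPM, Irf4 at 47.0, 59.1, 31.1, 16.9 and 4.38 CPM, and Irf8 at 65.9, 95.4, 129, 198 and 243 CPM. In hashed sample 2 Maf was at 36.8, 65.2, 85.1, 358 and 726 CPM and Id2 at 446, 359, 417, 196 and 82.3 CPM. Klf4 was at 329 and 483 CPM in the 15 to 60 step and 156 and 129 CPM in the highest step, and Cebpb at 432 and 498 CPM and 339.7 and 339 CPM in the same steps. Spi1 stayed between 395 and 506 CPM over all steps. The cells with C1q under 15 were the C1q-low ungated cells, which held Cd209a at 120 and 244 CPM and Chil3 at 348 and 106 CPM. C1q-high macrophages held Cd209a at 8.07 and 10.6 CPM and Chil3 at 42.7 and 13.7 CPM. The steps thus differed in dendritic cell and monocyte markers as well as in C1q. Whether a change of cell type lies behind the trends was not tested.

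**Figure D4:**
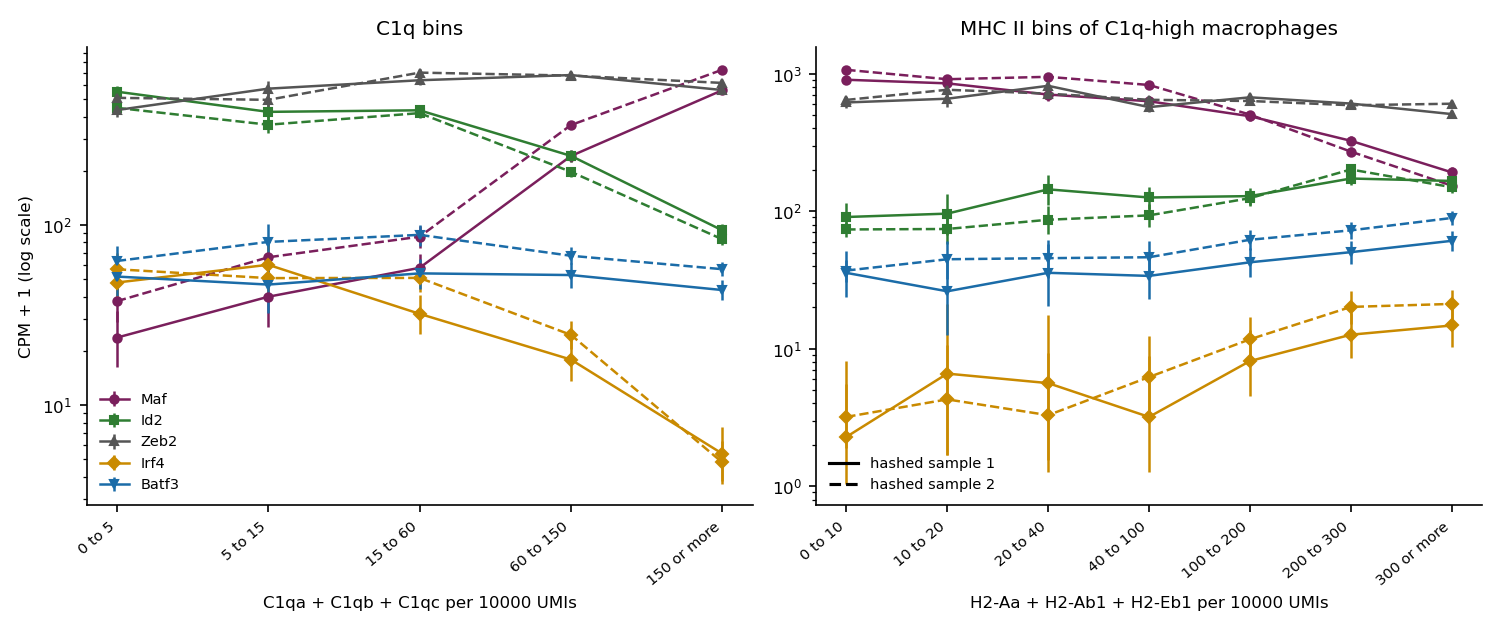
Levels of 5 members (CPM + 1 on a log axis) over steps of the C1q level (left; cells outside the dendritic cell and monocyte gates) and of the MHC II level in C1q-high macrophages (right), with solid lines for hashed sample 1, dashed lines for hashed sample 2 and 95% Poisson intervals. Maf reaches 559 and 726 CPM at the highest C1q step and is at 191 and 152 CPM at the highest MHC II step, while Zeb2 lies between 433 and 699.7 CPM along C1q and between 507 and 815 CPM along MHC II.

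Over 16 groups (6 classes, the 9 states and the cells of no state; log2 of CPM + 10, mean of the hashed samples), Id2 and Maf had a Pearson r of -0.92, the strongest among the 36 pairs of members, and Zeb2 and Cebpb one of 0.87. These are descriptions, since the groups share 1 library and the states share most of their genes' levels. The genes most like each member among 2097 candidates were Rnase4, Selenop and Ang for Maf (r of 0.983, 0.983 and 0.977), Sirpa, Itgam and Lrp1 for Zeb2 (0.986, 0.972 and 0.957), Bri3bp, Lsp1 and Tmsb10 for Id2 (0.956, 0.940 and 0.932) and Rnf149, Cybb and Atp6v1e1 for Cebpb (0.954, 0.935 and 0.925). They were Acer3, Ptpn12 and Pilrb2 for Klf4 (0.925, 0.910 and 0.901), Mapkapk2, Lcp2 and Nupr1 for Spi1 (0.913, 0.869 and 0.863) and Prcp, Itgax and Palld for Irf4 (0.909, 0.899 and 0.894). Bcl7c, Pgls and Tbca for Batf3 (0.881, 0.868 and 0.846) and Dnase1l3, Ifi211 and Prpf38b for Irf8 (0.778, 0.768 and 0.749) were less alike.

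Levels in the hashed samples differed by less than 1.5-fold for most pairs of a member and a class. The matching share over all measured genes was not computed, so the counts that follow are not read as a trait of the members. Of 60 pairs of a member and a class with at least 50 CPM in either hashed sample, 17 differed by at least 1.5-fold between hashed samples, and in 14 the counting interval of the ratio lay clear of 1. Beside Irf8, Batf3 was higher in hashed sample 2 in type 1, type 2 and migratory dendritic cells, at 1.56 (1.10 to 2.25), 2.03 (1.34 to 3.16) and 2.10 (1.42 to 3.13) times. Id2 was lower there in classical monocytes, at 0.449 (0.314 to 0.634), and patrolling monocytes, at 0.417 (0.281 to 0.615). Whether separate animals or weeks stand behind these differences is not given in the labels.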

How the data were processed

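The deposited matrices hold raw UMI counts per gene and cell. Per the file headers they come from Cell Ranger 6.1.1, and the authors applied no normalization. Version 6.0 of it, Seurat 4.3.0 and mm10 are named in the submitters' processing notes. Totals were 20743037 and 25314154 UMIs. The Visium section and a deposited table outside the matrices were not analysed here. Cells needed at least 200 genes, 500 UMIs and at most 10% mitochondrial UMIs, which removed 414 barcodes. Scrublet in scanpy 1.11.5 removed 44 doublets, and 5 cells lost by an unclear hashtag, 0.742% of those passing. Classes were gated on marker sums per 10000 UMIs with at least 2 genes detected (type 1 dendritic cells 5, migratory 10 with at least 3 genes, type 2 dendritic cells 4, classical monocytes 10, patrolling monocytes 5). The members, gates and gene lists were chosen with earlier results of these data known. UMIs were summed per class and hashed sample, and the TMM factors came from edgeR 4.0.16. Intervals are exact (Poisson, Clopper-Pearson or conditional, 95%) and cover counting error only; a count of 0 is given with the level of 3 UMIs. Named genes are the members, the 3 genes most like each, and up to 4 counted other transcription factors per comparison with the largest mean log2 ratio, some of which are not reported here. The fold rule was tested on simulated counts with counting error only. It called 4.46% of unchanged genes for patrolling against classical monocytes and at most 0.185% in the other class comparisons. In the patrolling comparison it found 68.5% of measured genes set 2-fold higher and 65.6% of those set 2-fold lower. Elsewhere it found 68.4% to 100%. Alternatives were the pseudocount, fold, minimum level, scaling, gate levels, doublets, depth, Leiden clusters (leidenalg 0.10.2, formed without the members) and each hashed sample alone.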

Additional observations from a re-analysis of the deposited data

How the results depend on the processing

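No paired analysis was possible because no test was made; each class comparison is given within each hashed sample, whose cells shared the capture. Of 20 member calls in the 6 class comparisons, 20 were kept and 4 added with TMM factors, and 16 were kept with the fold raised to 2 or with gate levels halved. Keeping doublets lost none, and requiring at least 3000 UMIs lost none. Leiden clusters kept 15 of the 17 calls they could give and added 5, and gave no patrolling comparison, since no cluster was mostly patrolling monocytes. The comparison of MHC II-low with MHC II-high macrophages, and so its Maf call, was not repeated with Leiden clusters. Halving the gate levels gave 3 members for type 1 against type 2 dendritic cells, in place of 5, and turned Cebpb round, to a log2 mean of 0.15. MHC II-low against MHC II-high macrophages gave 1 member as reported, 4 with TMM factors or from hashed sample 2 alone, and 2 without a minimum CPM, with halved gate levels, with cells of at least 3000 UMIs or with the dividing level halved. With hashed sample 1 alone, C1q-high macrophages against classical monocytes gave 6 in place of 3. With hashed sample 2 alone, type 2 dendritic cells against C1q-high macrophages gave 8 in place of 5 and patrolling against classical monocytes 4 in place of 2. For the macrophage states, the 2-fold rule left 8 of 18 pairs. Members whose top class was the same in both hashed samples numbered 5 as reported and 4 to 7 under the alternatives. The cause of these changes was not tested. Patrolling monocytes, with the fewest UMIs, limit Irf4 and Batf3, and type 1 dendritic cells rest on 54 and 77 cells.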

Other observations

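Cells outside the myeloid classes also carried members. NK cells (24 and 11) held Id2 at 920.3 and 1101 CPM and Irf8 at 454 and 215 CPM, and neutrophils (11 and 18) held Cebpb at 3739 and 3368 CPM, above the 1364 and 1711 CPM of patrolling monocytes, and Spi1 at 659.7 and 1122.5 CPM. B cells (23 and 24) held Irf8 at 326 and 167 CPM. Droplets with tubule markers (28 and 28), which carried C1q at medians of 15.2 and 21.1 per 10000 UMIs, held Maf at 623 and 528 CPM, as high as C1q-high macrophages. These are few cells with 1 library behind them, and no comparison was made.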
